A study of Mus musculus with 46 samples.

Results

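Vip-expressing neurons of the mouse frontal cortex were compared between 2 driver crosses: interneuron-selective cells (63 cells in 4 libraries) and CCK basket cells (64 cells in 4 libraries), together 127 of 584 cells and 8 of 46 libraries. Members were taken by the cell names in the deposited table, so no measured value chose them. Interneuron-selective cells were labelled Vip-Flp; CR-Cre; Ai65 and came from layer 2/3 of 2 female mice (animals 3 and 4) aged 32 postnatal days. CCK basket cells were labelled Vip-Flp; CCK-Cre; Ai65 and came from layers 2 and 3 of 2 male mice (animals 5 and 6) aged 39 and 40 postnatal days. In both crosses the Ai65 reporter needs both recombinases, so red fluorescence marks any cell that has expressed Vip together with calretinin (CR, encoded by Calb2) or Cck, at present or in the past. The labels call all mice wild type and carry a statement of tamoxifen induction that concerns another driver line. Single fluorescent neurons were picked by hand after trituration, and their RNA was linearly amplified. Sex, age and flow cell all differed between the types, so their parts in any difference cannot be told apart from cell type. Martinotti libraries (Sst-Flp; CR-Cre; Ai65, female, 35 days) shared the flow cell of the interneuron-selective libraries and are given where they bear on a result.

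Vip neurons of the cortex arise from the caudal ganglionic eminence and use GABA as their transmitter. Those with calretinin mostly contact other interneurons and thereby release pyramidal cells from inhibition. Those with cholecystokinin form baskets around pyramidal cell bodies and carry the cannabinoid receptor CB1 on their terminals, where it restrains GABA release.

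Depth differed between the types. Interneuron-selective libraries ranged from 530927 to 1092091 counts, and their median cell had 42258 counts in 7817 genes. CCK basket libraries ranged from 2329357 to 3942461 counts, and their median cell had 155732 counts in 10506 genes. The floor that 3 counts over a type set was 0.968 CPM (counts scaled to the library total) in interneuron-selective and 0.269 CPM in CCK basket cells. Profiles under the cell barcodes of a library differed little from each other beyond counting noise. Over genes with at least 160 counts in a library, the squared deviation of cells from their library's composition was 0.972 to 1.02 times counting noise at the median, where random draws from a single pool give 1. Across the 2 libraries of an animal the same ratio was 1.67 to 2.73 at the median. Libraries rather than cells were therefore the smallest unit that carried a difference, and no result below rests on single cells. Libraries of an animal differed from each other by 27.4 to 67.4 times sampling noise, about as much as libraries of different animals of the type (30.4 to 82.5 times). The 8 libraries used 16 cell barcodes, of which 15 occurred in each library. Whether the barcodes of a library separated its cells was not tested, so likeness between real cells cannot be read from these ratios.

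Driver genes were examined first. Vip, the peptide gene shared by both crosses, stood at 2658, 3089, 2115 and 2167 CPM in the interneuron-selective libraries and at 3581, 4739, 3908 and 5118 CPM in the CCK basket libraries. Calb2 stood at 659, 352, 427 and 339 CPM against 11.7, 2.46, 136 and 134 CPM, so that CCK basket libraries of animal 5 were well below those of animal 6. Cck stood at 454, 1113, 192 and 148 CPM against 1235, 1498, 1902 and 3248 CPM. Libraries of the types did not overlap in any of the 3 genes, with Calb2 higher in the CR-Cre cross, Cck in the CCK-Cre cross and Vip in CCK basket cells. None passed the test across genes: the fitted log2 difference (interneuron-selective minus CCK basket) was 2.34 ± 0.98 (SE) for Calb2, -2.28 ± 0.96 for Cck and -1.04 ± 1.80 for Vip, with edgeR adjusted p of 0.224, 0.23 and 0.804. Since the crosses selected on these genes, their levels are no evidence of identity. Interneuron-selective cells thus held Cck RNA, and library 2 (1113 CPM) lay close to the lowest CCK basket library.

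**Figure D1:**
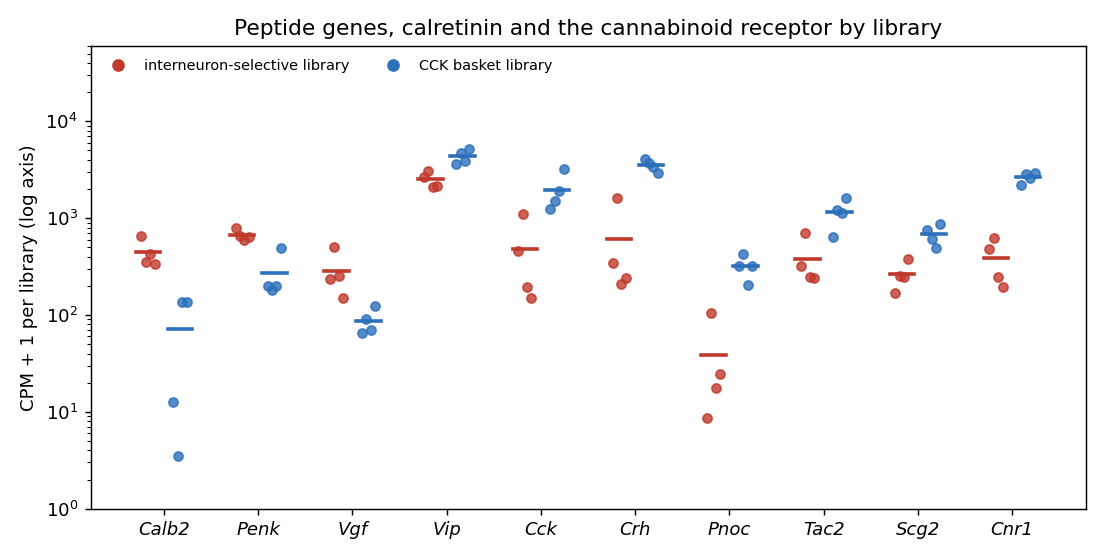
CPM + 1 on a log axis for 10 genes in each of the 4 interneuron-selective (red) and 4 CCK basket (blue) libraries; horizontal bars are means over libraries. Calb2, Penk and Vgf lie higher in every interneuron-selective library, and in Tac2 library 2 at 704 CPM reaches above the lowest CCK basket library at 632 CPM.

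Promoters of peptide genes that were higher in every CCK basket library are shown because the cyclic AMP response element is a known control element of peptide genes. The 250 bases before the RefSeq gene start are given 5′ to 3′ on the gene's own strand (GRCm38.p6), with capitals on matches to TGACGTC or TGCGTCA, searched on both strands, where overlapping matches are joined. Vip lies at chr10:5638968-5639217 on the plus strand, Cck at chr9:121495695-121495944 and Scg2 at chr1:79440027-79440276 on the minus strand.
Vip: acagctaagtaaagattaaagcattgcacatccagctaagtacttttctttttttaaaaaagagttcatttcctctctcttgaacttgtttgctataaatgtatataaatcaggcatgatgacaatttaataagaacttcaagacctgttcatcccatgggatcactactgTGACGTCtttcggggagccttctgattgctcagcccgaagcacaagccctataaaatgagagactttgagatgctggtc
Cck: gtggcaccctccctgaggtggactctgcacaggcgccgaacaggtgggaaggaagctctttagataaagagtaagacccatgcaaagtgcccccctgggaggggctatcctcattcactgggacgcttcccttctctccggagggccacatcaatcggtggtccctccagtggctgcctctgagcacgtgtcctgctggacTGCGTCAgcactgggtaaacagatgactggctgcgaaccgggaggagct
Scg2: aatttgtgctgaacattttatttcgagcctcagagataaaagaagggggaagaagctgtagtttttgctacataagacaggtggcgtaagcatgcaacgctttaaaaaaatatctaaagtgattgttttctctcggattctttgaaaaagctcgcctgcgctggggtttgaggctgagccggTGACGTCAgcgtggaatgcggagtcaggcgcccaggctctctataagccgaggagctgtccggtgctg
The match begins 79 bases before the start in Vip (position -79), at -49 in Cck and at -68 in Scg2. Of 32851 promoter windows of this length, 2.78% held TGACGTC and 1.75% held TGCGTCA on either strand. A match describes letters and not a site in use. Both sequences were searched as forms of a known element of peptide genes, so the shares over all windows do not measure an enrichment here. Promoters of peptide genes higher in interneuron-selective libraries are not shown, so the matches do not tell the types apart. Crh and Pnoc, also higher in every CCK basket library, are not in the table.

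Of 15533 genes tested, 51 rose in interneuron-selective cells and 158 in CCK basket cells at an edgeR adjusted p under 0.05 (1.35% in either direction, 0.328% and 1.02% by side). At an unadjusted p under 0.05 there were 2841. The counts depended on the fit. One on these 2 types alone, with 4 animals, called 1 gene, the sex-linked Xist, higher in the female interneuron-selective cells. DESeq2 called 579 and 833. The fit used here shares 1 estimate of spread over 16 replicates of 7 types, with a coefficient of variation of 61.7%, and 2 animals stand behind each type compared. Of 85 genes called and examined, 16 stayed called in all 12 fits that leave out 1 animal or 1 library. Of the called genes named below, these were Cdk5r2, Igbp1, Arpc3, Pde1a, Arhgap21, Cdk8, Camk1d, Dnahc7b, Rsph3b, Lsamp, Rpl7, Atpif1, Malat1, Xist and Tsix, and each of the others was lost in at least 1 of the 12. The losses named below are examples, and for many genes losses without an animal are not listed. Library values did not overlap between the types in 5.28% of tested genes with interneuron-selective cells higher and in 3.24% with CCK basket cells higher, so separation of the 4 libraries is not rare by itself. Fold changes below are fitted log2 differences after trimmed-mean scaling, on which the median of all genes was -0.07. Ratios of CPM are higher for interneuron-selective cells by 0.26 on the log2 scale.

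**Figure D2:**
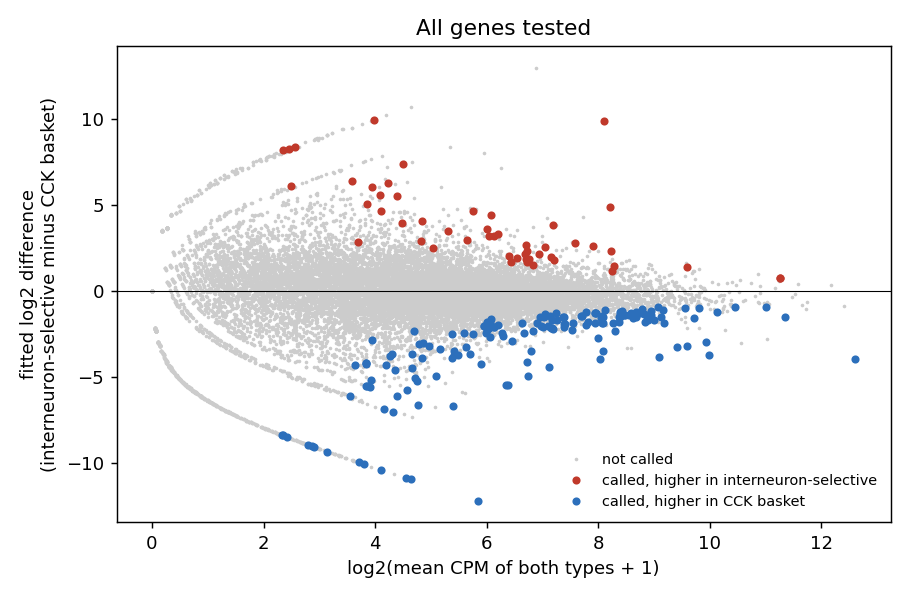
Fitted log2 difference (interneuron-selective minus CCK basket) against log2 of the mean CPM of both types plus 1, for the 15533 genes tested. The 51 genes called higher in interneuron-selective cells are red and the 158 called higher in CCK basket cells are blue, and uncalled genes of low level spread as far as the called ones.

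The genes that rose in interneuron-selective cells are given one by one and form no list that was tested. Cdk5r2, an activator of the neuronal kinase Cdk5, stood at 358, 605, 267 and 458 CPM against 33.5, 65.3, 42.1 and 89.4 CPM, a log2 difference of 2.64 ± 0.34 (SE; edgeR adjusted p = 0.00615). Nptxr, the neuronal pentraxin receptor that gathers AMPA receptors at synapses, stood at 343, 706, 343 and 656 CPM against 28.7, 57.9, 131 and 128 CPM (log2 difference 2.32 ± 0.47; edgeR adjusted p = 0.0312). For both genes every interneuron-selective library lay above every CCK basket library, and Martinotti libraries had medians of 527 and 163 CPM. Cdk5r2 stayed called without each animal and each library, and Nptxr was lost without animal 3, 4 or 5 (edgeR adjusted p of 0.0672 to 0.0839). The membrane-bending protein gene Mtss1l averaged 180 ± 68.1 CPM (SD, n = 2) against 29.8 ± 5.27 CPM, and the PDZ protein gene Pdzd2 1165 ± 105 CPM against 367 ± 93.4 CPM. Without CCK basket library 3 both were lost (edgeR adjusted p = 0.056). The scaffold gene Dlg5 averaged 88.6 ± 62.7 CPM against 9.15 ± 3.47 CPM. Its call was lost without animal 3, 5 or 6. With several single libraries left out it was lost as well, at edgeR adjusted p of up to 0.0723.

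The fatty acid transport protein gene Slc27a4 stood at 119, 98.1, 120.0 and 143 CPM against 1.27, 17.2, 17.6 and 10.6 CPM (log2 difference 3.21 ± 0.59; edgeR adjusted p = 0.0214), with no overlap of libraries between the types. The orphan receptor gene Gpr162 averaged 72.1 ± 11.5 CPM (SD, n = 2) against 5.36 ± 1.59 CPM, and Tmub1, a ubiquitin-like membrane protein, 273 ± 53.5 CPM against 16.1 ± 2.32 CPM. Slc27a4 and Gpr162 lost their calls without animal 4, 5 or 6, at edgeR adjusted p of 0.0561 to 0.0918. Tmub1 lost its call without interneuron-selective library 3 (edgeR adjusted p = 0.0693). Cidea, a lipid droplet protein, averaged 129 ± 121 CPM against 5.15 ± 3.07 CPM, with libraries of animal 3 at 62.2 and 28.2 CPM and those of animal 4 at 184 and 255 CPM. Its call was lost without animal 4, 5 or 6, and without CCK basket library 3 (edgeR adjusted p = 0.0726 without that library). Cygb, which encodes cytoglobin, stood at 52.7, 93.6, 293 and 80.9 CPM against 18.4 to 41.1 CPM. Its call was lost without animal 4, 5 or 6, and without interneuron-selective library 3 (edgeR adjusted p = 0.0926 without that library). Wscd1, Ostf1, Lrrc3b, Zer1 and Mlf2 rose as well, by log2 differences of 4.07, 3.62, 3.19, 2.68 and 1.73. Wscd1 was lost without animal 4, 5 or 6. The other 4 were lost with at least 1 library left out, at edgeR adjusted p of up to 0.142 for Mlf2 without CCK basket library 3. Ostf1 and Mlf2 were also lost without each of the 4 animals. The gamma-protocadherin genes Pcdhgc3, Pcdhgc4 and Pcdhgc5, cell-surface recognition molecules, rose together by 1.83 to 1.99, but they share their last exons, and their values are uncertain as separate measurements. All 3 were lost without interneuron-selective library 1, at edgeR adjusted p of 0.0656 to 0.0917, and without CCK basket library 1 or 3.

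Genes that rose in CCK basket cells included Igbp1, a phosphatase regulator, at 183, 227, 180 and 67.8 CPM against 1.88, 2.97, 0.916 and 12.4 CPM (log2 difference -5.46 ± 0.58; edgeR adjusted p = 0.000747). Arpc3, a subunit of the actin-nucleating Arp2/3 complex, averaged 203 ± 37.9 CPM (SD, n = 2) against 7.27 ± 9.11 CPM. Both stayed called without each of the 4 animals and each of the 8 libraries. Scyl2, a clathrin-associated pseudokinase, stood at 23.1, 102, 94.9 and 8.17 CPM against 0, 0, 0.916 and 1.24 CPM, too few counts for a fold, and was lost without animal 3 (edgeR adjusted p = 0.0506). Dcx, the microtubule protein doublecortin of immature neurons, stood at 38.3, 138, 142 and 16.7 CPM against 5.65 to 9.96 CPM, and was lost without CCK basket library 3 (edgeR adjusted p = 0.056). Larp1b, Mcfd2, Cox11 and Txndc9 rose as well, with log2 differences of -4.94, -3.69, -3.88 and -3.23. Each of these 4 calls was lost with part of the samples left out. Larp1b and Txndc9 were lost without each of the 4 animals, Cox11 without animal 3, 4 or 5, and Mcfd2 without animal 3 or 6. Without interneuron-selective library 1 Larp1b was lost (edgeR adjusted p = 0.0529). Mcfd2 was lost without interneuron-selective library 3 (edgeR adjusted p = 0.0789), and Txndc9 without that library (0.0899) or CCK basket library 4 (0.058).

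Of 41 cyclic nucleotide genes tested, 2 rose in CCK basket cells and 0 in interneuron-selective cells, and of 39 genes of G proteins and their regulators 1 and 0, where 1.02% and 0.328% of all genes did so. Pde1a, a calcium-activated phosphodiesterase, averaged 62.0 ± 10.4 CPM (SD, n = 2) against 7.28 ± 0.896 CPM (log2 difference -3.33 ± 0.46; edgeR adjusted p = 0.00766), and the G-protein subunit gene Gnai3 75.3 ± 42.3 CPM against 5.88 ± 3.62 CPM. Prkacb, a catalytic subunit of protein kinase A, was the other cyclic nucleotide call, chosen after its values were seen, at 220.9 ± 29.8 CPM against 60.5 ± 17.4 CPM with overlapping libraries. It was lost without interneuron-selective library 3 (edgeR adjusted p = 0.0571). Gnai3 was lost without CCK basket library 1 (edgeR adjusted p = 0.085). Ramp1, a partner of calcitonin-family receptors, averaged 93.3 ± 11.3 CPM against 8.94 ± 1.45 CPM. It was lost without each of the 4 animals, and without CCK basket library 2 (edgeR adjusted p = 0.0857). In Pde1a and Ramp1, 75.6% and 60.2% of values above 0 were not whole, which limits both as single-gene counts. The median log2 difference of the cyclic nucleotide list was -0.22 against -0.07 for all genes. Among those not called, the phosphodiesterase genes Pde9a (91.5 ± 17.5 against 10.5 ± 6.81 CPM) and Pde1b (60.4 ± 7.86 against 15.2 ± 5.28 CPM) had higher values in every interneuron-selective library and were chosen after their values were seen.

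Ribosomal RNA had the highest level among the called genes in CCK basket cells, though not in interneuron-selective cells. Rn45s, the ribosomal RNA precursor, stood at 704, 456, 993 and 1495 CPM in interneuron-selective and at 15864, 8219, 12679 and 7960 CPM in CCK basket libraries (log2 difference -3.96 ± 0.64; edgeR adjusted p = 0.0123). It was lost without animal 3 (edgeR adjusted p = 0.0579). Martinotti libraries had a median of 1552 CPM. In the 38 libraries of neither type, 13 tested genes had a correlation of at least 0.85 with Rn45s on log2(CPM + 1), where the next gene reached 0.764 and the median of all tested genes was 0.096. The points share depth and flow cell, and the correlations are given as a description. Of these 13 genes, 10 rose in CCK basket cells: Arhgap21, Camk1d, Cdk8, Dnahc7b, Il31ra, Lars2, Rsph3a, Rsph3b and 2 genes without a usual symbol. Arhgap21, with the highest correlation of 0.973, stood at 237, 224, 339 and 233 CPM against 2143, 1246, 1928 and 1222 CPM, which is 33.7%, 49.2%, 34.1% and 15.6% of Rn45s in the interneuron-selective and 13.5% to 15.3% in the CCK basket libraries. Cdk8 averaged 999 ± 56.5 CPM (SD, n = 2) against 82.6 ± 69.8 CPM, and Camk1d 1867 ± 476 CPM against 170 ± 91.8 CPM. Lars2 was lost without each of the 4 animals, and without CCK basket library 1 (edgeR adjusted p = 0.0764) and 3 other libraries. Rsph3a and Rsph3b are near-identical neighbours and are uncertain as separate genes. Whether reads of ribosomal RNA were counted at these genes was not tested. Gphn, the gephyrin gene, also followed Rn45s (0.889) and was not called, at 1398 ± 670 CPM against 381 ± 73.7 CPM.

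**Figure D3:**
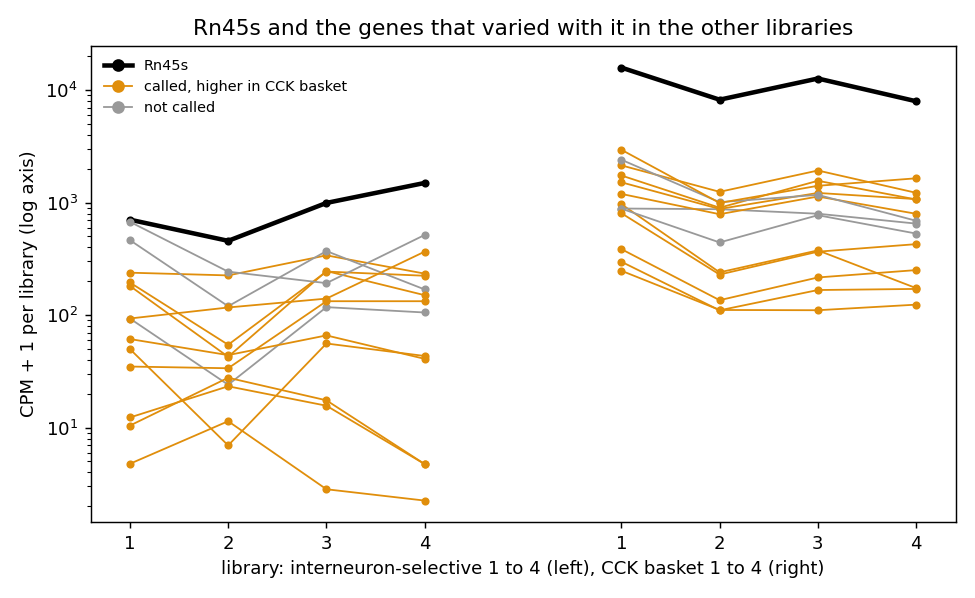
CPM + 1 on a log axis in each library of the types for Rn45s (black) and the 13 genes whose correlation with it over the 38 other libraries was at least 0.85; orange lines are the 10 called higher in CCK basket cells and grey lines the other 3. Rn45s and the orange genes are lower in all 4 interneuron-selective libraries than in any CCK basket library.

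Peptide genes were ordered as precursors and then receptors. Of 29 peptide genes tested, 1 rose in CCK basket cells (against 1.02% of all genes) and 0 in interneuron-selective cells, with a median of -1.04 against -0.07 for all genes. Scg2, the secretogranin of dense-core vesicles, was that gene, at 168, 254, 248 and 376 CPM against 748, 612, 489 and 875 CPM (log2 difference -1.67 ± 0.36; edgeR adjusted p = 0.0387). It was lost without each of the 4 animals, and without CCK basket library 4 (edgeR adjusted p = 0.0634) or interneuron-selective library 3 (0.0603). The following genes did not pass and were chosen after their values were seen, for libraries that do not overlap. Crh, corticotropin-releasing hormone, stood at 345, 1625, 208 and 240.2 CPM against 4057, 3725, 3361 and 2905 CPM (edgeR adjusted p = 0.3), and Pnoc, the nociceptin precursor, at 40.1 ± 29.1 CPM (SD, n = 2) against 311 ± 67.3 CPM (0.247). Interneuron-selective library 2 was the highest of its type in Crh, Pnoc, Cck, Tac2 and Cnr1. In the other direction, Penk, the enkephalin precursor, stood at 785, 650, 589 and 641 CPM against 197, 182, 200.1 and 494 CPM (0.729), and Vgf, a secreted granule protein, at 296 ± 126 CPM against 85.5 ± 16.1 CPM (0.101). Tac2, the neurokinin B precursor, overlapped between the types at 390 ± 207 CPM against 1112 ± 362 CPM.

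Of 35 peptide receptor genes tested, Ramp1 alone rose in CCK basket cells, where 1.02% of all genes did. Further lists held 23 monoamine receptor genes, 20 genes of acetylcholine receptors and signalling, and 29 genes of ionotropic glutamate receptors and their auxiliary proteins. Others held 7 metabotropic glutamate receptor genes and 11 endocannabinoid genes. None of these genes passed in edgeR, where 0.328% and 1.02% of all genes passed by side. DESeq2, which called 4.05% and 5.82% of its genes by side, called 1, 2, 5, 2 and 1 members of these lists. Cnr1, the CB1 receptor gene that marks CCK basket cells, stood at 478, 623, 245 and 193 CPM against 2198, 2856, 2622 and 2908 CPM, did not overlap and did not pass (log2 difference -3.02 ± 1.29; edgeR adjusted p = 0.232). Receptor genes picked after their values were seen included Htr7, the serotonin receptor 7 gene, at 2.19 ± 1.60 CPM (SD, n = 2) against 54.3 ± 6.07 CPM. Chrna4, a nicotinic subunit, was higher in interneuron-selective cells at 241 ± 104 CPM against 48.4 ± 7.39 CPM. Grm3, a metabotropic glutamate receptor that couples to inhibitory G proteins, stood at 53.9 ± 0.133 CPM against 4.03 ± 0.071 CPM over animals. Its libraries spread from 7.33 to 117 CPM, so the small SD between animals does not describe them. Grin2b, an NMDA receptor subunit, stood at 1341, 1778, 905 and 1281 CPM against 560, 407, 464 and 358 CPM. The edgeR adjusted p was 0.11 for Htr7, 0.441 for Chrna4, 0.0697 for Grm3 and 0.0953 for Grin2b.

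Of 10 shared GABAergic genes tested, 2 rose in CCK basket cells and 0 in interneuron-selective cells, against 1.02% and 0.328% of all genes. Of the 10 log2 differences 9 were below 0, against 8090 of 15533 for all genes, and their median was -0.97 against -0.07. The homeobox gene Dlx1 averaged 200 ± 29.0 CPM (SD, n = 2) against 464 ± 40.6 CPM, and its libraries overlapped. It overlaps an antisense gene and its values are uncertain. The Dlx1 call was lost without each of the 4 animals, and without interneuron-selective library 3 (edgeR adjusted p = 0.105) or CCK basket library 4 (0.143). Gad1, which makes GABA, averaged 526 ± 153 CPM against 874 ± 127 CPM without passing (edgeR adjusted p = 0.0947), and Gad2 277 ± 109 CPM against 438 ± 88.5 CPM. The vesicular transporter gene Slc32a1 averaged 1402 ± 397 CPM against 1204 ± 136 CPM, and its direction flips with scaling, at a fitted log2 difference of -0.05.

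None of 9 genes of the caudal and 8 of the medial eminence lineage passed in edgeR, where 0.328% and 1.02% of all genes passed by side. DESeq2 called 0 and 1 of them, where it called 4.05% and 5.82% of its genes by side. The 1 was Sox6. Adarb2, which marks the caudal lineage, stood at 4333 ± 950 CPM (SD, n = 2) against 6462 ± 1073 CPM. Sp8 and Npas3 were also higher in each CCK basket library, at 129 ± 47.5 against 33.1 ± 4.59 CPM and 1645 ± 34.7 against 901 ± 141 CPM. Egfr was higher in each interneuron-selective library at 126 ± 94.2 against 21.9 ± 11.4 CPM. The summed caudal list lay at 5380 to 7110 CPM in interneuron-selective and 8560 to 11000 CPM in CCK basket libraries, against 592 to 997 CPM in Martinotti libraries. The medial eminence list lay at 107 to 156 CPM and 72.7 to 192 CPM, against 2690 to 3800 CPM. Of its members, Lhx6 and Sst had 0 counts in CCK basket cells, and Lhx6 had 0 counts in interneuron-selective cells as well. Other members were present in both types. Nkx2-1 averaged 17.9 and 18.9 CPM, near the Martinotti median of 16.9 CPM. Sox6 averaged 70.5 and 26.8 CPM and Satb1 11.3 and 49.8 CPM, below Martinotti medians of 381.5 and 243 CPM. The marker list of interneuron-selective cells summed to 3520 to 4880 CPM against 2010 to 4400 CPM, and overlapped between the types. The list of CCK basket cells summed to 731 to 3190 CPM against 4870 to 7860 CPM. No tested member of either list was called, against 0.328% and 1.02% of all genes by side. The lists include the driver genes Calb2 and Cck, so their sums are no evidence of identity. In the first list 3 of 10 log2 differences were below 0, Tac2 among them. In the list of CCK basket cells 1 of 8 was above 0, that of Slc17a8. In that list Krt73 in both types and Sncg in interneuron-selective cells had 0 counts.

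Of 65 potassium channel genes tested 3 rose in CCK basket cells, against 1.02% of all genes, and 0 in interneuron-selective cells. The 3 were Kcnip1, Kcnd2 and Dpp6, which together build A-type potassium channels. Kcnip1, a calcium-sensing subunit, stood at 255, 308, 308 and 235 CPM against 852, 887, 600.0 and 612 CPM (log2 difference -1.65 ± 0.32; edgeR adjusted p = 0.028). It was lost without animal 3, 4 or 5 (edgeR adjusted p of 0.081 to 0.0918). Kcnd2, the pore-forming Kv4.2 subunit, averaged 290 ± 84.7 CPM (SD, n = 2) against 630 ± 108 CPM, and the auxiliary subunit gene Dpp6 149 ± 24.6 CPM against 289 ± 36.7 CPM. Both were lost without each of the 4 animals. They were also lost without interneuron-selective library 1 (edgeR adjusted p of 0.0731 and 0.0869), and 79.2% of values of Dpp6 were not whole. The list's median was -0.07, as that of all genes. Cacnb4, a calcium channel subunit, and Gabrg3, a GABA receptor subunit, rose in CCK basket cells as well, at 97.8 ± 18.4 CPM against 232 ± 37.4 CPM and 413 ± 84.6 CPM against 736 ± 41.1 CPM (edgeR adjusted p of 0.0257 and 0.0337). Gabrg3 was lost without interneuron-selective library 4 (edgeR adjusted p = 0.051), and Cacnb4 without animal 3 or 5 (0.0899 and 0.0797), where 40.6% of values of Cacnb4 were not whole.

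Among 56 genes of vesicles and release 3 rose in CCK basket cells and 0 in interneuron-selective cells, against 1.02% and 0.328% of all genes. Syt1, the calcium sensor of fast release, averaged 1593 ± 95.8 CPM (SD, n = 2) against 2524 ± 44.1 CPM. Its call was lost without each of the 4 animals, and without interneuron-selective library 4 (edgeR adjusted p = 0.0867 without that library). Syn2, a synapsin that tethers vesicles, was chosen after its values were seen and averaged 683 ± 73.1 CPM against 1102 ± 21.9 CPM, with overlapping libraries. It was lost without each of the 4 animals (edgeR adjusted p of 0.0708 to 0.112), and 53.5% of its values were not whole. Lsamp, a membrane-anchored adhesion molecule of the immunoglobulin family, stood at 267, 305, 332 and 316 CPM against 623, 755, 614 and 754 CPM (log2 difference -1.41 ± 0.21; edgeR adjusted p = 0.00984). It was the call among 63 synaptic adhesion genes, against 1.02% of all genes. In 10 of these 63 genes every interneuron-selective library was higher, and in 3 every CCK basket library, against 5.28% and 3.24% of all genes. Nlgn2, the postsynaptic adhesion molecule of inhibitory synapses, was among the 10 at 262 ± 41.3 CPM against 52.1 ± 41.1 CPM (edgeR adjusted p = 0.127) and was chosen after its values were seen. Among 92 transcription regulators 2 rose in interneuron-selective cells and 1, Dlx1, in CCK basket cells, against 0.328% and 1.02% of all genes. Scrt1, a neuronal repressor, averaged 49.3 ± 7.81 CPM in interneuron-selective cells against 5.47 ± 2.63 CPM. It was lost without each of the 4 animals, and without CCK basket library 3 (edgeR adjusted p = 0.0611) or interneuron-selective library 4 (0.0802). Sox2, a regulator of neural progenitors and glia, was the other, chosen after its values were seen, at 424, 44.6, 145 and 916 CPM against 50.5, 87.1, 12.9 and 25.7 CPM. Its libraries overlapped, and it was lost without interneuron-selective library 1 (edgeR adjusted p = 0.141) or 4 (0.0876). The immediate early gene Dusp1 rose in CCK basket cells at 25.1 ± 13.3 CPM against 1.47 ± 0.905 CPM. It was the call among 16 of that list, against 1.02% of all genes, and was lost without CCK basket library 3 (edgeR adjusted p = 0.0788). Jund and Npas4 were not called (edgeR adjusted p of 0.135 and 0.327) and were chosen after their values were seen. Both were higher in each interneuron-selective library, at 45.5 ± 0.228 against 7.48 ± 1.40 CPM and 50.1 ± 0.768 against 5.94 ± 2.85 CPM. Their interneuron-selective libraries spread from 34.8 to 59.7 CPM and from 16.4 to 94.2 CPM, so the small SDs between animals do not describe them.

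The lists for protein synthesis and energy metabolism were chosen after values were seen. Over all genes, 1.02% rose in CCK basket cells, 8090 of 15533 log2 differences were below 0 and their median was -0.07. Of 82 ribosomal protein genes 9 rose in CCK basket cells and 69 had a log2 difference below 0, with a median of -0.59. Rpl7 stood at 293 ± 16.7 CPM (SD, n = 2) against 869 ± 13.5 CPM (edgeR adjusted p = 0.000747). Of 89 oxidative phosphorylation genes 6 rose there and 72 were below 0, with a median of -0.47, Atpif1, an inhibitor of the ATP synthase, standing outside that count at 121 ± 7.88 against 367 ± 110 CPM. Malat1, a nuclear non-coding RNA also chosen after its values were seen, stood at 1539 ± 186 CPM against 3670 ± 794 CPM.

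Sex, other cells and base composition moved with the comparison. Xist, the RNA that silences the inactive X, stood at 441, 523, 511 and 755 CPM in the female libraries and at most 0.859 CPM in the male ones, and its antisense gene Tsix at 577 ± 87.2 CPM (SD, n = 2) against 16.4 ± 3.65 CPM. Without stated strand, reads of the pair cannot be told apart. Ddx3y and Eif2s3y, on the Y chromosome, rose in the libraries labelled male, and were lost without animal 4 (Ddx3y, edgeR adjusted p = 0.0587) or CCK basket library 2 (Eif2s3y, 0.0622). Ddx3y held 12.4 to 40.1 CPM in the female libraries, where it should be absent. Oligodendrocyte markers had higher values in interneuron-selective cells, with a median log2 difference of 5.48 over 8 genes. Of these, 0 were called by edgeR and 2 by DESeq2, against 0.328% and 4.05% of all genes on that side. Their sum was 105, 55.7, 3750 and 154 CPM against 53.4, 9.24, 52.8 and 34.7 CPM, so that library 3 carried most of it. Within that library no single cell held most of the 4094 marker counts. The top cell of 16 had 17.4% of them, against 15.6% for Vip. Excitatory neuron markers summed to 29.7 to 138 CPM against 9.80 to 70.3 CPM, with 6 and 4 of 10 genes at 0, Slc17a6, Emx1, Tbr1 and Fezf2 among them. The highest sum of each type was almost all Cux2, at 133.2 CPM in interneuron-selective library 4 and 69.75 CPM in CCK basket library 1. Astrocyte markers summed to 310 to 498 CPM against 157 to 624 CPM. The part of RNA from other cell types in the results was not tested.

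**Figure D4:**
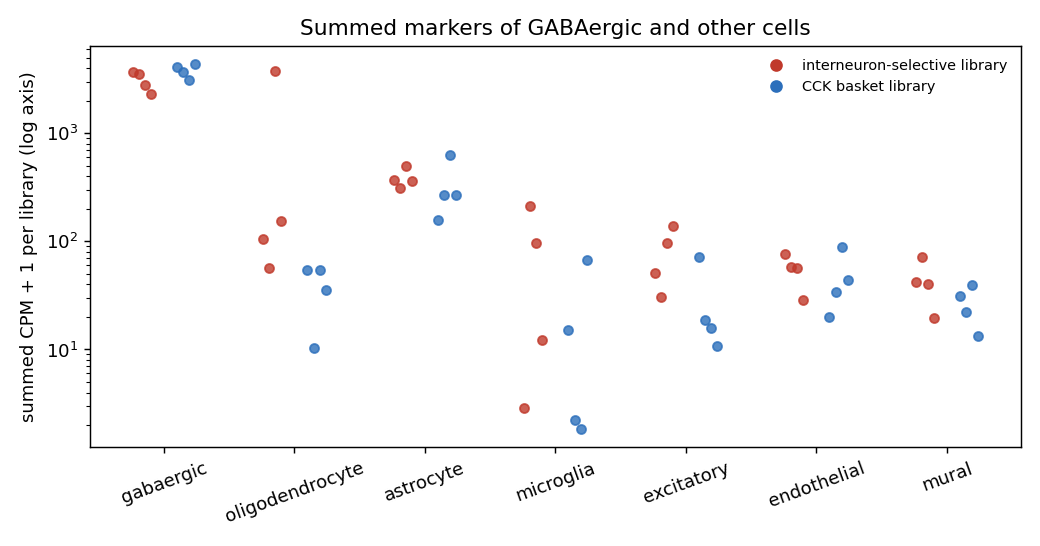
Summed CPM + 1 on a log axis of marker lists in each interneuron-selective (red) and CCK basket (blue) library. Oligodendrocyte markers reach 3750 CPM in interneuron-selective library 3 and at most 154 CPM in the other 7 libraries.

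Log2 differences also followed GC content. Over quintiles of genes from the lowest to the highest transcript GC content, their median was -0.38, -0.21, -0.08, 0.00 and 0.23. Genes that rose in interneuron-selective cells had a median GC content of 54.8% and those that rose in CCK basket cells of 46.9%, against 49.7% in all tested genes. With offsets that remove this trend the medians lay between -0.13 and -0.07, and 132 of the 209 calls remained. Martinotti libraries, of the same sex and flow cell as the interneuron-selective ones, lay nearer to them than to CCK basket libraries in 72.5% of the 51 genes that rose in interneuron-selective cells, in 43.7% of the 158 that rose in CCK basket cells and in 51.0% of all tested genes. Sex, flow cell and type cannot be told apart by these values.

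**Figure D5:**
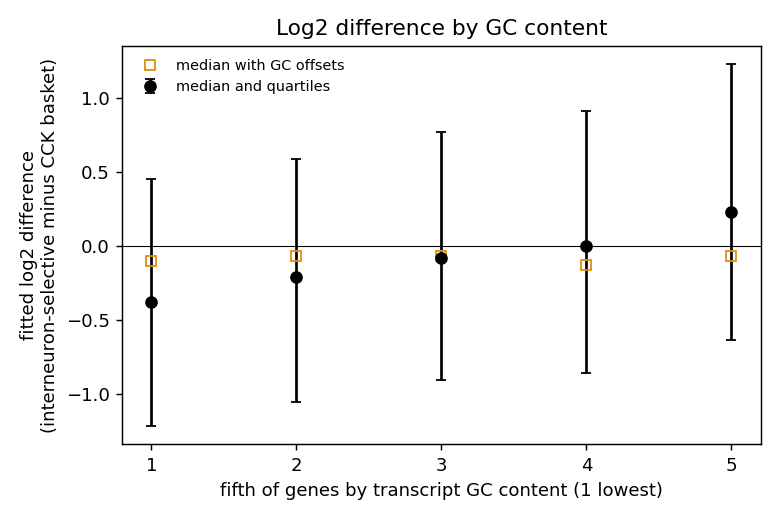
Fitted log2 difference (interneuron-selective minus CCK basket) by quintile of transcript GC content, as median with quartiles (black) and as median after GC offsets (orange squares). The uncorrected median goes from -0.38 in the lowest to 0.23 in the highest quintile.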

How the data were processed

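RNA was counted under cell barcodes in 8 libraries, 4 for each type. Per the labels' protocols, RNA was amplified in 2 rounds and tagged with random sequences, and Bowtie 0.12.7 and mm9 are named in the submitters' processing notes. Values per gene and cell are the authors' expected counts, as deposited: 4.26% of values above 0 in these types are not whole within 1e-06. The sources used here do not say whether reads or distinct tags were counted. Floors cover counting error only. Counts were summed over cells per animal and rounded. PV basket animals 7 and 8 (81 and 58 days), and 9 and 10 (83 days), were summed in pairs that each join a male and a female. An earlier analysis of these files found that their libraries agree within sampling noise, which is not shown here. The pairing leaves 16 replicates of 18 labelled animals.

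One fit over 7 types in R 4.3.3 with edgeR 4.0.16 (quasi-likelihood test, robust prior, TMM scaling, filterByExpr by type, Benjamini-Hochberg adjustment, threshold 0.05) gave the contrast of interneuron-selective minus CCK basket cells, with 9 residual degrees of freedom. It was tested on simulated data. The types compared have 2 animals each, and the labels do not say more about their independence. P-values rest on a spread estimated over 16 replicates of 7 types, most of them outside the 2 types compared. CPM are per library total, and means ± SD are over 2 animals. The SE of a log2 difference is its size divided by the square root of the quasi-likelihood F statistic. It is therefore derived from the test and is no separate estimate. DESeq2 1.42.0 was an alternative. Numbers in the titles only count libraries and pair nothing. Transcript GC content came from GENCODE M21, by symbol (98.6% of tested genes). Promoters came from RefSeq, with 3 of 5 peptide genes matched.

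Members and gene lists were chosen with earlier results of these data known. Named genes are the drivers, the 20 largest differences per side among called genes of at least 50 CPM whose 4 libraries do not overlap, up to 4 called genes per list and side of at least 20 CPM whose libraries do not overlap, and members of marker lists. Genes correlated with Rn45s are named by that correlation. Other genes named beyond this rule are said to be chosen after their values were seen. Results for some genes are not given, though counts over lists include them.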

Additional observations from a re-analysis of the deposited data

Results flagged for a closer look

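In 208 groups of 4 libraries, 1 library stood apart from the other 3 in 22 cases, where chance gives about 1 in 20. Among interneuron-selective libraries, library 2 stood high at 1625 CPM in Crh, 103 CPM in Pnoc, 434 CPM in Kcnd2 and 40.1 CPM in Ddx3y, and low at 103 CPM in Pcdhgc5. Library 3 of that type stood high at 293 CPM in Cygb, 339 CPM in Arhgap21, 3748 CPM in the summed oligodendrocyte markers and 118 CPM in the summed markers of oligodendrocyte precursors. Library 4 stood high at 27.4 CPM in Mcfd2. Among CCK basket libraries, library 1 stood high at 5044 CPM in Malat1, 247 CPM in Il31ra, 24.1 CPM in Pde1b and 70.3 CPM in the summed excitatory neuron markers (69.75 CPM of it Cux2). Library 2 stood high at 25.5 CPM in Tmub1 and 41.5 CPM in Unc5a. Library 3 stood low at 949 CPM in Slc32a1 and high at 68.0 CPM in the summed precursor markers. Library 4 stood high at 494 CPM in Penk, 71.1 CPM in Sncg, 76.0 CPM in Mlf2 and 584 CPM in Atpif1.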

How the results depend on the processing

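Against 51 genes called higher in interneuron-selective and 158 in CCK basket cells, DESeq2 called 579 and 833, and 18 labelled animals as replicates gave 217 and 513. Without a filter on low counts 33 and 136 were called. With these 2 types alone the counts were 1, the sex-linked Xist, and 0 (1363 genes at an unadjusted p under 0.05). With 8 libraries as replicates they were 4 and 19, and with the library number as a replicate block 2 and 10. A number in the title pairs nothing by the labels. GC offsets, chosen after seeing the data, gave 30 and 126, and CCK basket counts thinned to the depth of the other type, keeping 27.8% of counts, gave 36 and 94. DESeq2 size factors gave 50 and 124. Leaving out 1 animal or library gave 12 to 81 and 67 to 273: both lowest values came without animal 6 and both highest without interneuron-selective library 2. Without animals 3, 4 and 5 the counts were 56 and 101, 22 and 78, and 17 and 103. The lone animal left is then assumed to vary like the other types. Without interneuron-selective library 3 they were 43 and 254. No call of the 209 changed sign in any of these fits in which its gene was tested. The fits reuse the counts on which the genes were called, so a change of sign was unlikely from the start. Of 85 genes called and examined, 46 lost the call without at least 1 of the 8 libraries and 66 without at least 1 of the 4 animals. The cause of these changes was not tested. The lower depth of interneuron-selective cells limits what can be seen below 0.968 CPM there.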

Other observations

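Of 58 axon guidance genes tested, 1 rose in interneuron-selective cells and 0 in CCK basket cells by edgeR, against 0.328% and 1.02% of all genes. The median log2 difference was 0.25 against -0.07 for all genes, and in 6 genes every interneuron-selective library was higher against 5.28% of all genes. The call was Sema6d, a semaphorin, at 5.65, 0, 79.7 and 51.0 CPM against 0.507, 0, 0 and 0.817 CPM, and it was lost without animal 4 (edgeR adjusted p = 0.445). Unc5a, a netrin receptor gene, stood at 79.1, 180, 238 and 176 CPM against 3.81, 41.5, 7.73 and 4.49 CPM without passing (edgeR adjusted p = 0.104). From the synaptic adhesion list, Cntn2, an axonal adhesion molecule gene of the immunoglobulin family, stood at 448, 90.7, 226 and 456 CPM against 12.4, 25.1, 25.3 and 7.76 CPM (edgeR adjusted p = 0.0958). All 3 were chosen after their values were seen.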
